A study of Caenorhabditis elegans with 2 samples.

Results

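The genes of the cytosolic chaperonin CCT were examined for binding of the transcription factor LSY-2 at their promoters. They are cct-1 to cct-8, taken by name, and make up 8 of the 19973 protein-coding genes of the 6 nuclear chromosomes. The set was chosen with earlier results of the data known. The data are chromatin immunoprecipitation followed by sequencing (ChIP-seq) from whole Caenorhabditis elegans at the L2 larval stage, of mixed sex, in 1 group with 2 biological replicates. Both replicates were of 1 transgenic line, strain OP367, genotype unc-119(tm4063) III with the integrated transgene wgIs367, which makes LSY-2 joined at its C terminus to GFP and FLAG. LSY-2 is a zinc finger protein known for its part in setting the left and right identities of the ASE taste neurons. There was no second genotype, stage or treatment, so no contrast between conditions existed. Because whole animals were used, a peak is a sum over all cells that carried the tagged protein, and the cells behind it cannot be told apart.

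CCT, also called TRiC, is built of a pair of stacked rings, and each ring holds all 8 subunits once. Every subunit is encoded by its own gene, and the proteins are related in sequence. The complex folds newly made actin and tubulin, which the co-chaperone prefoldin hands over to it, as well as other cytosolic proteins. In C. elegans, raised levels of CCT-8 are known to help protein homeostasis and to lengthen life. The annotated products are the alpha subunit for cct-1, beta for cct-2, gamma for cct-3, delta for cct-4, epsilon for cct-5, zeta for cct-6, eta for cct-7 and theta for cct-8.

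Every cct gene had an LSY-2 peak at its promoter. The promoter window began 1000 bp before the annotated 5′ end and ended 200 bp past it, and a gene was counted when the summit of a peak in the authors' optimal list lay in that window. The count was 8 of 8, beside 3831 of all 19973 protein-coding genes (19.2%). Each window held exactly 1 optimal summit, and the 8 summits belonged to 8 different peaks. All 8 lay upstream of the 5′ end, between 209 bp at cct-4 and 905 bp at cct-3, with a median of 298.5 bp. Over the 4043 pairs of a gene and a summit in its promoter the median was 234 bp. All 8 lay in intergenic sequence, outside every annotated gene, as did 79% of the 3054 peaks with a summit in any protein-coding promoter.

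Of these, the cct-8 and cct-1 peaks were among the strongest of the whole list. The authors' peak caller gave each peak a score, whose scale is not given in the sources used here, and the score is used only to rank peaks and to set peaks of 1 list side by side. The cct-8 peak, at chromosome IV 1094074 to 1094644 with a score of 10793, ranked 7 of 6312 optimal peaks, and the cct-1 peak, at chromosome II 8184932 to 8185487 with 9732, ranked 11. The next cct peak, at cct-5, had a score of 721 and ranked 363, so the cct-1 score was 13.5 times that of cct-5. Behind it came cct-6 with a score of 524 at rank 546, cct-7 with 477 at rank 616 and cct-3 with 410 at rank 746. The lowest were cct-4, with 214 at rank 1772, and cct-2, with 166 at rank 2347. From cct-8 to cct-2 the scores spanned a factor of 64.9, and without cct-8 and cct-1 a factor of 4.34.

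The cct peaks lay in the upper part of the list. Their median score was 501, beside a median of 174 for the 3054 peaks with a summit in any protein-coding promoter and 123 for all 6312 optimal peaks. All 8 were above the median of the optimal list and 7 above that of the promoter peaks, with cct-2 below it. Among promoter peaks alone, cct-8 and cct-1 kept ranks 7 and 11, while cct-2 stood at 1578. The strongest of the 8 were also the widest of the 8, at 571 bp for cct-8 and 556 bp for cct-1. Next were cct-7 with 398 bp and cct-5 with 393 bp, cct-2 had the narrowest peak, and the median over promoter peaks was 388 bp.

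**Figure D1:**
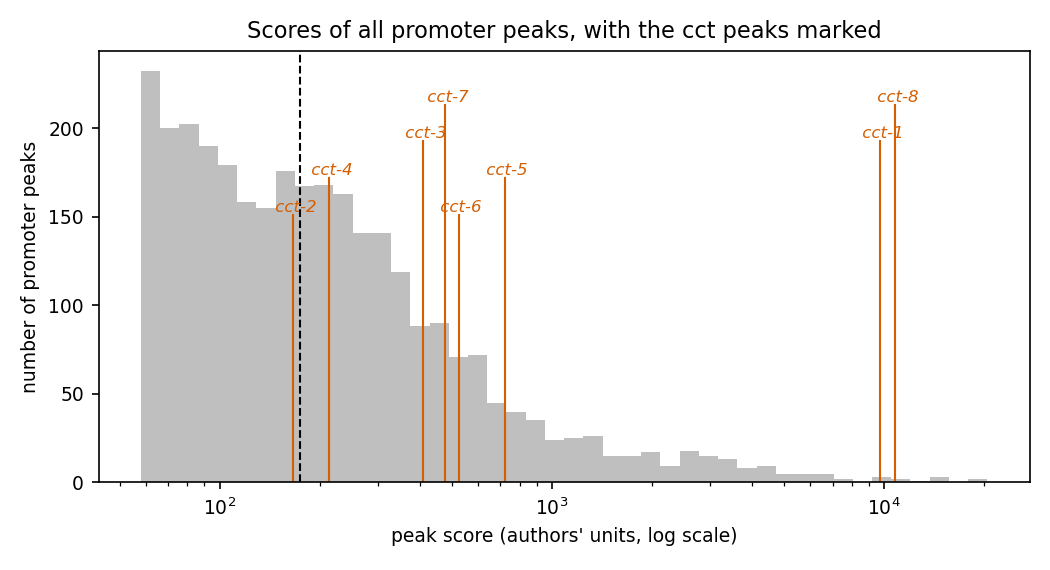
Histogram of the scores of the 3054 promoter peaks on a log axis, with the dashed line at their median of 174 and orange lines at the 8 cct peaks. The cct-8 and cct-1 lines stand in the thin tail near 10000, 5 lie between 214 and 721, and cct-2 lies just left of the median.

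Both replicates held every cct peak. At cct-8 the score was 5733 in replicate 1 and 5093 in replicate 2, with ranks of 8 and 7 in lists of 30000 peaks each. At cct-1 it was 5123 and 4638, with ranks of 10 and 11. Within each replicate cct-8 was therefore above cct-1, although the ranges of the pair over the replicates overlapped.

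The epsilon subunit gene cct-5 had scores of 408 and 318 in replicates 1 and 2, and ranks of 352 and 372. The zeta subunit gene cct-6 had 304 and 224, at ranks 508 and 594. The eta subunit gene cct-7 had 229 and 248, at ranks 731 and 522. These 2 genes changed places: cct-6 was above cct-7 in replicate 1 and below it in replicate 2, so their order was not settled.

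The gamma subunit gene cct-3 had scores of 209 and 199 at ranks 828 and 708. The delta subunit gene cct-4 had 106 and 110 at ranks 2051 and 1519, and the beta subunit gene cct-2 had 87.5 and 81.5 at ranks 2507 and 2227. Apart from cct-6 and cct-7, the order of the 8 genes was the same in both replicates.

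All 8 cct genes had a matching summit, within 200 bp, among the 6312 strongest peaks of both replicates. Of all genes with an optimal promoter summit, 88.8% did. The optimal list was derived from these replicates, so part of that support is built in. The matched summits of the replicates were 1 bp apart at cct-8 and at most 52 bp apart, at cct-6, with a median of 10.5 bp, beside 16 bp over promoter peaks. The score of replicate 1 divided by that of replicate 2 ran from 0.926 at cct-7 to 1.36 at cct-6, and its median over promoter peaks was 1.21. The deposited −log10 q-value could not order the genes, since it was the same for all 6312 optimal peaks. In the relaxed lists the 8 cct peaks also had the maximum, as did 30.3% of peaks in the pooled list, 32.3% in replicate 1 and 34.8% in replicate 2.

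**Figure D2:**
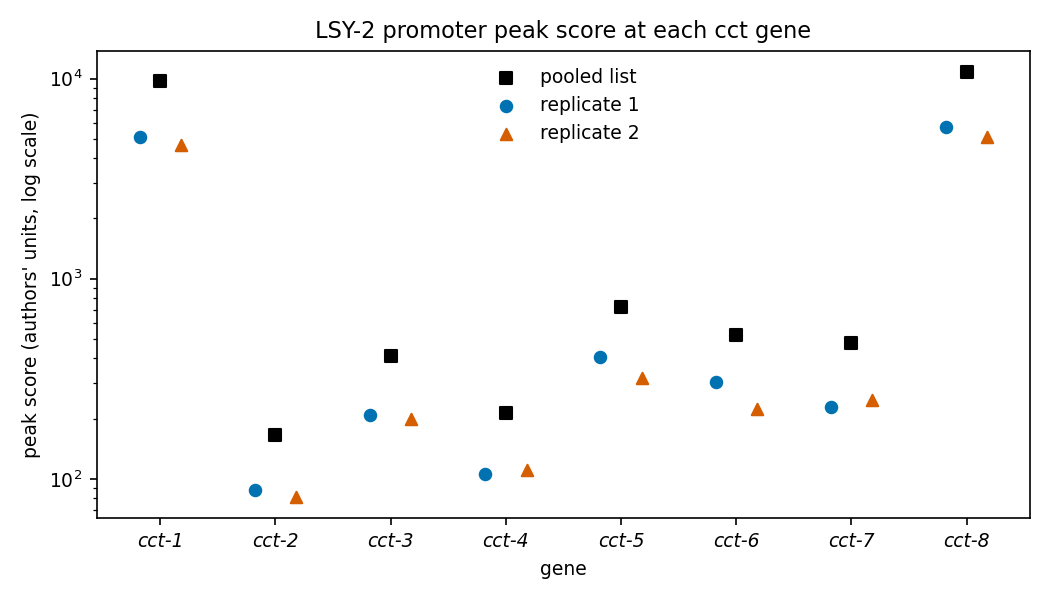
Score of the promoter peak of each cct gene on a log axis, in the authors' pooled list (squares) and in replicates 1 (circles) and 2 (triangles). In all 3 lists cct-8 and cct-1 stand far above the rest, and cct-6 and cct-7 change order between the replicates.

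Every cct summit lay between the 5′ ends of a pair of genes that point away from each other. All 8 cct genes had a protein-coding gene on the opposite strand with its 5′ end upstream and within 1200 bp, the length of the promoter window. This limit was chosen after values were seen and was not varied, so the count of 8 depends on it. The cct-2 and cct-3 pairs, at 1190 and 1070 bp, would fall outside a limit of 1000 bp. Of all protein-coding genes 20.2% had such a head-to-head neighbour. The 5′ ends of the cct pairs were 331 to 1190 bp apart, with a median of 540 bp, and the median over the 4026 genes with such a neighbour was 541 bp. Genes with a head-to-head neighbour had a promoter summit in 41.3% of cases and the other genes in 13.6%. The 8 cct genes are thus all in the class with the higher share, and their count of 8 of 8 stands beside 41.3% in that class.

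Each of the 8 summits also lay in the promoter window of the head-to-head neighbour. Of the 3831 genes with a promoter summit, 45.3% shared a summit with a gene on the opposite strand in this way. Of the same 3831 genes, 1661 had a head-to-head neighbour. A summit between 5′ ends that are closer together than the upstream reach of the window, 1000 bp, lies in both windows by construction. This holds for every cct pair but those of cct-2 and cct-3. Sharing in these closer pairs therefore follows from the gene layout and is not a separate trait of their peaks. Peaks in windows of both strands had a median score of 265 (n = 867), and the promoter peaks of 1 strand had 147 (n = 2187). The cct median of 501 was above both, and the scores of cct-2 and cct-4 were below that of the shared peaks.

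The summit was usually nearer to the neighbour than to the cct gene. Only cct-2 and cct-4, the genes with the lowest scores, had the nearest 5′ end, while in the other 6 pairs the neighbour did. Among the 1735 genes that share a summit with a gene on the opposite strand, 49.3% had the nearest 5′ end, and over all genes with a promoter summit, shared or not, 75.6% did. The assignment of the peak to either gene of a pair was not tested. Many C. elegans transcripts are trans-spliced, a step that replaces the original start of the RNA, so an annotated 5′ end can lie downstream of the start of transcription and these distances are to the annotation.

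The peaks of 4 genes, cct-8, cct-1, cct-6 and cct-7, covered the 5′ end of the neighbour, beside 36.1% of the genes that share a summit with one on the opposite strand. The cct-8 summit was 441 bp upstream of cct-8 and 180 bp upstream of Y55F3AR.2, which encodes a protein with a thioredoxin domain. Its peak also covered Y55F3AR.4, an unclassified non-coding RNA of 123 bp on the strand opposite to cct-8. The cct-1 summit was 228 bp upstream of cct-1 and 192 bp upstream of mig-5, which encodes a homologue of dishevelled, a transducer of Wnt signals. The mig-5 and cct-1 5′ ends were 420 bp apart, and the peak of 556 bp covered both.

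At cct-6 and cct-7 the summits lay closest to the neighbour of all 8. The cct-6 summit was 49 bp from alh-9, an aldehyde dehydrogenase gene, and 282 bp from cct-6. The cct-7 summit was 147 bp from T10B5.4, an N-acetyltransferase domain gene, and 292 bp from cct-7. The cct-7 peak also overlapped T10B5.13, a non-coding RNA of 96 bp on the strand of cct-7 whose 5′ end was 26 bp from the summit.

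The widest offset was at cct-3, where the summit was 905 bp upstream of cct-3 and 165 bp upstream of F54A3.6. RefSeq names the F54A3.6 products both as similar to periphilin-1 and as trithorax group protein osa. The cct-3 summit was the nearest of all to the edge of the window. At cct-5 the summit was 471 bp upstream, with the protein kinase domain gene F25F2.1 at 270 bp.

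In the pairs with the lowest scores, those of cct-4 and cct-2, the summit was nearer to the cct gene than to the neighbour. The cct-4 summit was 209 bp upstream of cct-4 and 250 bp upstream of nst-1, which encodes nucleostemin, a GTP-binding protein of the nucleolus. The cct-2 summit was 305 bp upstream of cct-2 and 885 bp from B0457.2, a glycine-rich protein gene. Downstream of cct-2, the mitochondrial ribosomal protein gene mrpl-50 followed on the same strand after 25 bp. The next same-strand gene was also close at cct-8 (csn-4, 94 bp), cct-3 (F54A3.2, 102 bp), cct-5 (atf-7, 142 bp) and cct-6 (ddx-23, 260 bp). At cct-1, cct-4 and cct-7 it was at least 11201 bp away. These gaps were not compared with those of all genes.

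**Figure D3:**
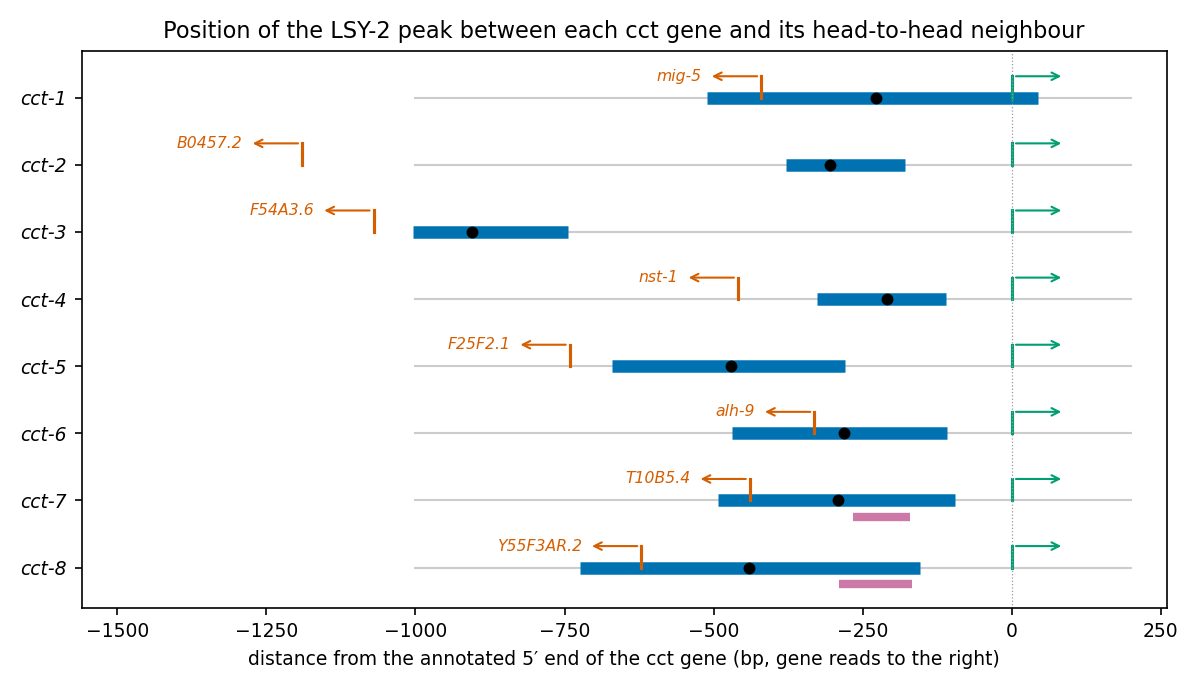
Position of each optimal peak (blue bar) and its summit (black dot) relative to the annotated 5′ end of the cct gene, set to 0 and marked by a green arrow; the grey line is the promoter window, orange arrows are the 5′ ends of the head-to-head neighbours and pink bars are non-coding RNA genes. The summit is closer to the orange arrow in 6 of 8 rows, and closer to the green arrow for cct-2 and cct-4.

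The sequence at the summits is shown for all 8 genes because the summit is the highest point of each peak, which a member shares with its neighbour. Each run holds the optimal summit with 50 bases on either side, read 5′ to 3′ on the strand of the cct gene, from the genome assembly WBcel235 (ce11) of RefSeq. Capitals mark matches, on either strand, to the 6-mer ACGCAG, the 6-mer ACCGTA, to TTCNNGAA, or to the 7-mer GGGTCTC in these windows, and none of the marked matches overlap.
cct-1 (chrII:8185165-8185265, plus strand): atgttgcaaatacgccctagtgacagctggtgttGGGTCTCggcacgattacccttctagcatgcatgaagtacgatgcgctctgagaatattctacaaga
cct-2 (chrII:8927386-8927486, plus strand): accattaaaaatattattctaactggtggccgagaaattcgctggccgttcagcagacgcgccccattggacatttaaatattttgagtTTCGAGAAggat
cct-3 (chrII:2232585-2232685, plus strand): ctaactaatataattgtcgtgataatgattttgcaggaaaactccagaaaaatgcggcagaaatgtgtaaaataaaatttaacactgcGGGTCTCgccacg
cct-4 (chrII:8283408-8283508, plus strand): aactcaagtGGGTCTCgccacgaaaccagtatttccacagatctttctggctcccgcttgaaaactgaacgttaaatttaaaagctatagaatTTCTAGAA
cct-5 (chrIII:4508535-4508635, minus strand): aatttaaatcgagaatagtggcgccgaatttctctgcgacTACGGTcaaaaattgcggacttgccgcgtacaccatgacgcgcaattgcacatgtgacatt
cct-6 (chrIII:5855919-5856019, minus strand): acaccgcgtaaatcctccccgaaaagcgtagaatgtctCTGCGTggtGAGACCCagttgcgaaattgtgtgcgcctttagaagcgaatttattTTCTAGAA
cct-7 (chrV:1871904-1872004, plus strand): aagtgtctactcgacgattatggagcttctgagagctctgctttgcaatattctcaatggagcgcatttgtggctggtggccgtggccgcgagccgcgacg
cct-8 (chrIV:1094311-1094411, minus strand): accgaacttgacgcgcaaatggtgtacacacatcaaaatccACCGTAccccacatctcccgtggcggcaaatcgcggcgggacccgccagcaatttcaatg

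The 6-mer GAGAGA, the 6-mer ACGCAG and the 6-mer ACCGTA were searched because they had been singled out in earlier results of these data. TTCNNGAA was searched because it is an inverted pair of the GAA blocks of the heat shock element, the site of the heat shock factor. GAGAGA was in 0 of the 8 windows, beside 27.1% of all 6312 optimal summit windows of the same length and 22.7% of the promoter ones. ACGCAG was in 1, at cct-6, beside 14.6% and 16.2%. ACCGTA was in 2, at cct-5 and cct-8, beside 6.88% and 8.81%, and beside 32.5% of the windows of the strongest 10% of optimal peaks, where both belong. In both windows it was centred within 7.5 bp of the summit. The peaks of cct-1, cct-6 and cct-7, at ranks 11, 546 and 616, also belong to the strongest 10% (631 peaks), and their windows did not hold ACCGTA.

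TTCNNGAA was in 3 windows, at cct-2, cct-4 and cct-6, beside 3.82% of all and 3.96% of promoter summit windows. The letters were TTCGAGAA at cct-2 and TTCTAGAA at cct-4 and cct-6, and each match lay 42.5 to 46.5 bp from the summit, towards the cct gene. With 100 bases on either side of the summit the count was 6, with cct-1, cct-5 and cct-7 added, beside 9.3% of all and 10.3% of promoter windows. A match describes the letters and not a bound factor. The 7-mer was noticed after the windows had been read. The windows held 36.6% GC at cct-3 to 56.4% at cct-8, with a median of 46.5%, beside 44.6% over promoter peaks and 48.5% over the strongest 10%.

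Outside these 8 peaks there was little at the cct promoters. The next optimal summit was 2523 bp away at cct-6 and 22768 bp away at cct-1, and a window reaching from 2000 bp before to 500 bp past the 5′ end still held 1 summit per gene. The relaxed lists, which take in peaks far below the authors' threshold, added 3 summits that did not belong to the optimal peak. At cct-3 a summit 180 bp upstream had a score of 22.1 and rank 9944 in replicate 1, and one 189 bp upstream had 11.9 and rank 24852 in the pooled list, with none in replicate 2. At cct-6 a summit 459 bp upstream had 12.1 and rank 15283 in replicate 2 alone. This cct-6 summit lay inside the optimal peak and within 200 bp of the optimal summit, and was listed only for its rank.

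Inside the gene bodies, 3 more optimal summits were found, all in introns of cct-3 and cct-5, the longest cct genes. Of all protein-coding genes 5.39% held an optimal summit in an intron, and of the 1250 genes at least as long as cct-5 31.1% did. The introns of cct-5, a gene of 8927 bp, held 1 at 2220 bp from the 5′ end with a score of 145 and 1 at 3580 bp with a score of 184. An intron of cct-3, a gene of 10000 bp, held 1 at 8017 bp with a score of 110. All 3 scores were below that of the promoter peak of the same gene.

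The co-chaperone prefoldin was described by its own genes. Of the 6 prefoldin genes 5 had one, with a median score of 364 over 6 peaks, since pfd-5 had 2. The prefoldin gene pfd-1 was the strongest, with a score of 3111 at rank 63, and like the cct genes it shared its summit with a head-to-head neighbour, F01G4.6. After it came pfd-6 with 635, pfd-3 with 389, pfd-5 with 340 and 60.7, and pfd-4 with 266, while pfd-2 had none. Of the prefoldin genes 2, pfd-1 and pfd-4, shared a summit with a gene on the opposite strand, beside 8 of 8 cct genes. Among the prefoldin genes with a peak, only these 2 had a head-to-head neighbour, so the counts also reflect how the genes are arranged.

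The mitochondrial chaperonin is a separate complex, made of HSP-60 and its lid, the product of Y22D7AL.10. The pair of genes lay head to head with 5′ ends 813 bp apart, and 1 peak with a score of 1737 at rank 137 stood in the windows of both. Its summit was 609 bp upstream of hsp-60 and 204 bp upstream of Y22D7AL.10.

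The main substrates of CCT are actin and tubulin. Of the 5 actin genes 3 had a promoter peak, act-2 with a score of 227, act-4 with 149 and act-1 with 83.7. Of the 15 tubulin genes 6 had one, led by the alpha-tubulin gene tba-2 with 989 and the beta-tubulin gene tbb-1 with 297. The others were the gamma-tubulin gene tbg-1 with 240, tbb-2 with 233, the touch neuron alpha-tubulin gene mec-12 with 140 and tba-1 with 112. The tba-1, tbb-1 and tbg-1 summits also lay in the promoter window of another gene, whose 5′ end was the nearer at tbb-1 and tbg-1. The medians were 149 for actin and 236 for tubulin peaks, and the cct median was 501. These lists are small, none was tested, and all stand beside the 19.2% of protein-coding genes with a promoter summit.

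**Figure D4:**
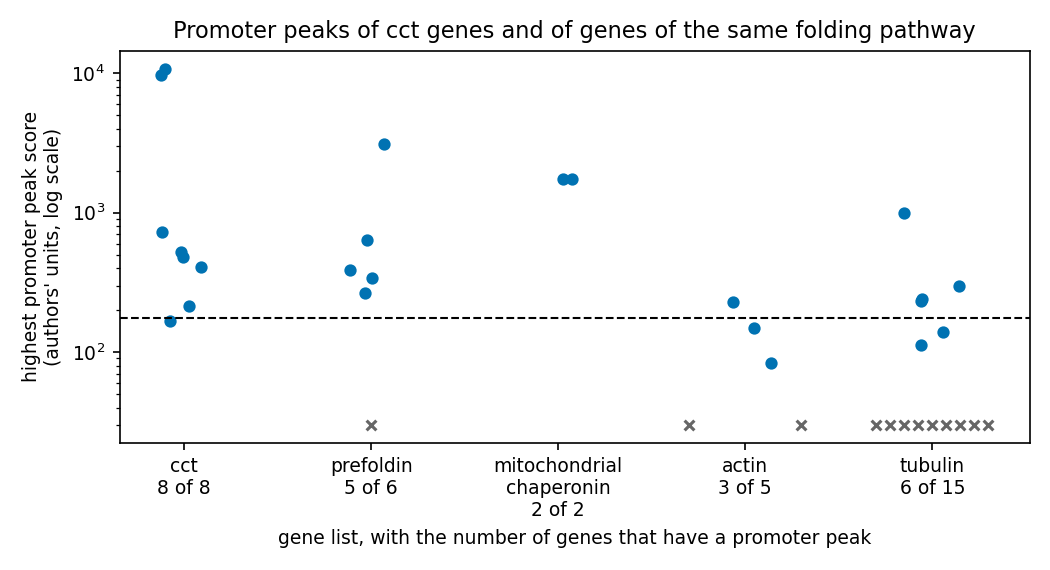
Highest promoter peak score of each gene (blue points, log axis) in the cct, prefoldin, mitochondrial chaperonin, actin and tubulin lists; grey crosses at the foot are genes with no optimal summit in the window, and the dashed line is the median of all promoter peaks, 174. The cct list has no cross, and its cct-8 and cct-1 points lie above all points of the other lists.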

How the data were processed

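ChIP-seq peak lists of 2 biological replicates were used. The authors called relaxed lists of 30000 peaks on each replicate and on both pooled, against a control, and derived an optimal list of 6312 peaks by the irreproducible discovery rate, per the file listing deposited beside them. No source used here names the peak caller, aligner or threshold. The authors deposited a signal score and a −log10 q-value for each peak. All 6312 optimal peaks have an identical peak in the pooled list, so optimal and pooled scores are the same. The files used hold no read counts, so depth is unknown and no interval was computed.

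Peaks on ce11 (assembly WBcel235) were used, and those on ce10 were not. Genes came from Ensembl release 115, and product names and sequence from RefSeq. A summit is the deposited start plus the summit offset. Summits matched between lists within 200 bp, the nearest first. Python 3.11.15 with pandas 2.3.3 and numpy 2.4.6 was used, and the window assignment and motif search were checked on planted positions.

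No test was run: there is 1 group, and members and lists were chosen with earlier results of these data known. Counts stand beside those of all protein-coding genes. The genes named are the 8 members, genes sharing or overlapping a member's peak, and list members with a peak. The list member pfd-2, which had none, and F01G4.6, which shares the pfd-1 peak, were named after values were seen. The motif GGGTCTC, the intronic summits, mrpl-50 and the other downstream genes, and the 1200 bp limit for head-to-head genes were chosen after values were seen.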

Additional observations from a re-analysis of the deposited data

How the results depend on the processing

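Of 17 alternative values for 8 results, 15 were labelled the same. For a count this means within 1.5 times of the reported count, whether identical or not. The median over the highest peak of each gene is among the 15 but could not differ, since each window held 1 optimal summit. The count of cct genes with a promoter summit was 8 with the wider window, with the 5′ ends of all transcripts and with any overlap. These settings are also among the 15 but could not change the count. They take in every summit already counted, and 8 is the highest count possible. The count was also 8 with the strongest 50% of optimal peaks and without either replicate. It was 7 with the window of 500 bp upstream to 100 bp downstream, where cct-3 dropped out. With that window the median score moved from 501 to 524, because fewer genes entered it. TTCNNGAA was in 3 windows with 50 bases on either side of the summit and in 6 with 100, and a longer window holds more letters to match. All 8 genes stayed among the strongest peaks of both replicates with 100 bp matching and with the shorter lists. Depth is unknown, so no limit from counting can be given for weak peaks. With 2 replicates of 1 group, the spread between animals or cultures is seen only through that pair of libraries.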

Other observations

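The 8 summit windows were compared with each other after their letters had been seen, so the values here are descriptions. The 7-base run found in the largest number of them was GGGTCTC, which was in 4 of the 8 windows, at cct-1, cct-3, cct-4 and cct-6, on either strand. It was in 3.14% of all 6312 optimal summit windows, in 4.65% of the promoter ones and in 9.51% of those of the strongest 10% of peaks. It lay over the summit itself at cct-6, and 13, 38 and 41 bp from it at cct-1, cct-4 and cct-3. The longest run in common to any 2 of the windows was GGGTCTCGCCACG, at cct-3 and cct-4. This run of 13 bases matched the genome 1175 times over both strands of the 6 nuclear chromosomes, and 34 of the 6312 summit windows (0.539%) held it.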
